A study of Mus musculus with 12 samples.

Results

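The clustered replication-dependent histone genes were examined in sorted fetal liver cells of mouse embryos with and without a Cre transgene that deletes floxed Jag1 in blood cells. The members are the protein-coding genes whose GENCODE M21 symbol (GRCm38) names a cluster (Hist1 to Hist4) and a class (H1, H2A, H2B, H3 or H4). They number 67, of 32285 gene rows in the table of the hematopoietic stem cell (HSC) sort and 56980 rows in that of the macrophage sort. A further 3 of the 70 matching symbols are pseudogenes and were left out. By class the members are 6 linker histone H1 genes, 18 H2A, 18 H2B, 12 H3 and 13 H4 genes. The Hist1 cluster holds 54 of them on chromosome 13 (21715763 to 23934851), Hist2 holds 10 on chromosome 3 (96219865 to 96270132), Hist3 holds 2 on chromosome 11 and Hist4 is the single gene Hist4h4 on chromosome 6.

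All embryos were C57BL/6 at E14.5 and homozygous for floxed Jag1 (f/f), the gene of the Notch ligand Jagged1. Those called Cre positive also carried Vav-Cre, which is active across blood cells and not only in the sorted ones. The HSC gate was DAPI-CD45+Lin-cKit+Sca1+CD48-CD150+, with 2000 cells in a library, and the macrophage gate was CD169+, with 1000 to 3000 cells; each sort has 3 Cre negative and 3 Cre positive libraries. Labels tag the HSC groups as WT and Mutant, and they do not say whether libraries came from separate embryos, so that p-values measure only the spread between these libraries. Where the 6 libraries of a sort are given, the 3 Cre negative ones come first, in replicate order, and the 3 Cre positive ones follow the word against.

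Histones H2A, H2B, H3 and H4 form the octamers around which DNA is wrapped, and linker histone H1 sits on the DNA between octamers. The clustered genes supply these proteins during S phase, when new DNA is packaged, and many copies of a class encode the same or nearly the same protein. Their messages normally have no intron and no poly(A) tail. They end a few bases after a conserved stem-loop that is bound by the stem-loop binding protein SLBP and cut with the help of U7 snRNP, while NPAT drives their transcription at the entry into S phase. The library kit used in both sorts, SMART-Seq v4, starts cDNA at poly(A) tails, so reads of these genes come from a measurement that was not made for their usual message form.

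The stem-loop is shown for 6 members, because the annotated distance from it to the end of the transcript is set beside the levels further on. Each sequence gives the 16 bases of the stem-loop in capitals with 5 bases on each side, 5′ to 3′ on the gene's strand, read from GENCODE M21 transcripts on GRCm38.
Hist1h2ae, chr13:23570663-23570688, minus strand: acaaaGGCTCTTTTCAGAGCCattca
Hist1h1e, chr13:23621777-23621802, minus strand: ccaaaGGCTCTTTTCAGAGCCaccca
Hist1h1c, chr13:23739507-23739532, plus strand: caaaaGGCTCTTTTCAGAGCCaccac
Hist1h4d, chr13:23581945-23581970, plus strand: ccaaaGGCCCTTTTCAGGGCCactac
Hist4h4, chr6:136803993-136804018, minus strand: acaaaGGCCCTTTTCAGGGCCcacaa
Hist1h4b, chr13:23757361-23757386, plus strand: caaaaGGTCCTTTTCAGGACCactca
All 6 lie in the 3′ untranslated region of a single-exon gene. The annotated transcript goes on for 151 bases after the stem-loop in Hist1h2ae, 1153 in Hist1h1e, 840 in Hist1h1c, 770 in Hist1h4d and 2445 in Hist4h4, against 28 bases in Hist1h4b. The 16-base stem-loop motif, with the 3rd, 4th, 13th and 14th base free, was searched on the transcript strand and occurred in 35 of 67 members. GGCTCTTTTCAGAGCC was carried by 26 members, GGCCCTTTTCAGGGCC by 7 and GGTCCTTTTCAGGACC by 2. Among 21951 protein-coding genes it occurred in 49 (0.223%), of which 35 are members. Of the 32 members without the motif, 13 have no annotated 3′ untranslated region. A missing match says only that these letters are not in the annotated transcript.

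Near-identical copies limit how single members can be read. Transcripts of the members were divided into windows of 50 bases, and each window was looked up in the transcripts of all other genes. The median share of windows found at no other gene was 98.9% for H1, 60.5% for H4, 56.0% for H2B, 42.8% for H3 and 27.0% for H2A, and 30 of the 67 members were under 50%. The tables do not show whether reads that match several copies were dropped, split or assigned to one, so H2A and H3 members in particular are uncertain. In addition, 10 members overlap another gene of the tables. Hist1h1e shares 25.7% of its length with Hist1h2be on the same strand, and Hist3h2a lies within Trim17. Hist2h2aa1, Hist2h2aa2, Hist2h2bb and Hist2h3b had 0 reads in all 12 libraries.

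Depth was 51982064 to 77463770 reads in HSC libraries, 17230019 to 24658205 in Cre negative macrophage libraries and 2602934 to 5366990 in their Cre positive counterparts, so that depth moved with genotype in macrophages. Jag1 measured 6.52, 6.86 and 1.15 against 10.5, 0 and 19.4 CPM (read counts scaled to the library's size) in HSCs, so it did not separate the groups there, and these libraries are called Cre positive by their labels only. In macrophages it measured 52, 20.7 and 25.8 against 0, 10.4 and 6.66 CPM. These are counts of the whole gene, including exons that may not be deleted. In macrophage libraries Siglec1, which encodes CD169, measured 16.0 to 115 CPM. Genes of the HSC gate were read in all HSC libraries. Ly6a, which encodes Sca1, lay at 127 to 190 CPM and Kit at 40.0 to 183 CPM. The CD150 gene Slamf1 ranged from 8.03 to 74.3 CPM. Although this gate takes CD48- cells, Cd48 measured 12.6, 17.4 and 25.3 against 3.27, 8.51 and 0 CPM there, without overlap. These levels do not settle which cells the libraries hold. Both sorts also held transcripts of other cells. In the HSC sort the 12 endothelial markers summed to 5834 to 13012 CPM. The sums there were 905 to 2248 CPM for 12 HSC markers and 1105 to 2511 CPM for 14 macrophage markers. For 11 hepatoblast markers the sum was 1733 to 3699 CPM. In the macrophage sort the endothelial markers summed to 7717 to 14445 CPM, against 1942 to 5919 CPM for 14 macrophage markers. Cre negative macrophage replicate 1 stood apart, with 4035 CPM of 11 hepatoblast markers, compared with 460 to 732 CPM elsewhere in that sort. No gene of the marker lists was at 0 in all libraries of a sort. The part of these cells in the results below was not tested. In bulk samples, fewer cells of a type and less RNA per cell cannot be told apart.

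In the HSC sort the histone genes took a small part of the reads, which start at poly(A) tails and do not give their part of the RNA. Their summed level was 325, 435 and 281 against 366, 444 and 582 CPM. That is 347 ± 79.1 against 464 ± 109 CPM (SD, n = 3 each), a ratio of 1.34, and the groups overlapped. H1 genes gave the largest share of histone CPM (31.7% to 44.1% over the 6 libraries), and H3 gave the least (1.94% to 3.83%). H2A gave 21.2% to 29.1%, and H2B (12.3% to 23.5%) and H4 (10.2% to 20.7%) changed order between libraries. By class, H2A summed to 80.8 ± 21 against 126 ± 40.5 CPM, and H1 to 134 ± 48.6 and 182 ± 18.5 CPM. H4 summed to 53.5 ± 4.30 and 76.6 ± 39.1 CPM, H3 to 9.88 ± 2.49 and 13.1 ± 5.29 CPM, and H2B to 68.5 ± 5.73 and 65.9 ± 18.4 CPM. None of the 5 classes separated the groups.

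**Figure D1:**
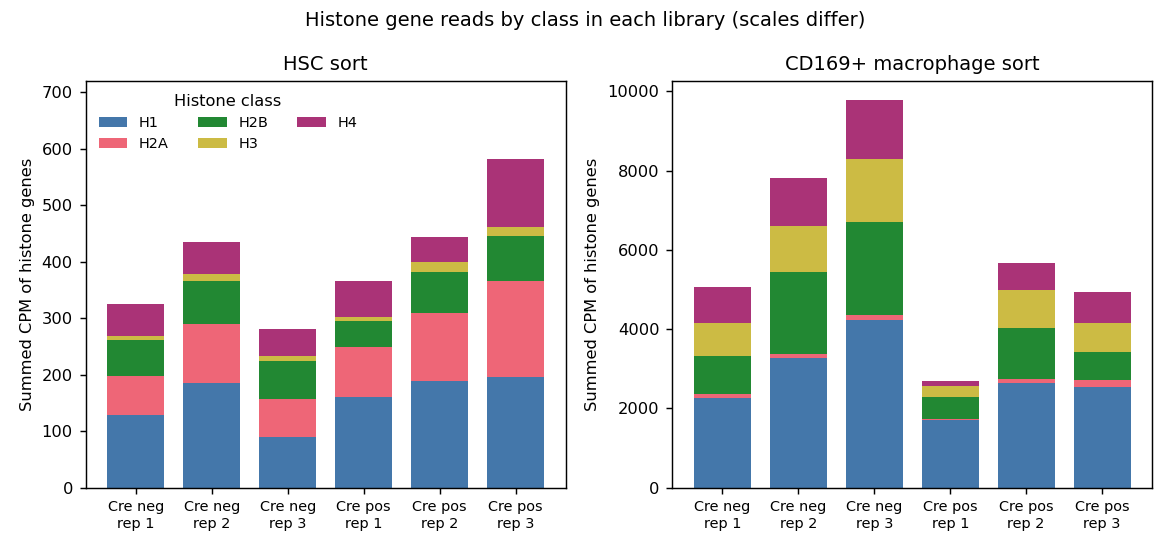
Summed CPM of the histone genes of each class (stacked colours) in every library of the HSC sort (left) and the macrophage sort (right), on different scales. Totals overlap between genotypes in both sorts; in macrophages the H4 part lies lower in all 3 Cre positive libraries (124 to 772 CPM) than in the Cre negative ones (930 to 1490 CPM).

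A few members carried most of the HSC signal: the 6 with the highest mean together held 65.6% to 80.2% of histone CPM. Among linker histones, Hist1h1e measured 48.0, 66.4 and 30.2 against 86.7, 67.1 and 71.8 CPM. All 3 of the latter lay above all Cre negative libraries, narrowly at the nearest pair. Hist1h1c, another linker histone gene, measured 38.5, 69.1 and 35.2 CPM against 42.9, 62.9 and 41.7 CPM, with overlap throughout. Hist1h1b, the highest linker gene per kilobase (50.8 CPM per kb), measured 30.0 ± 15.4 and 45.6 ± 21.6 CPM and Hist1h1a 4.83 ± 3.33 and 6.87 ± 6.06 CPM (Cre negative first, SD, n = 3 each). Hist1h1d separated the groups narrowly, at 2.96, 3.04 and 4.29 against 4.31, 7.10 and 4.47 CPM. The testis linker histone Hist1h1t, too scarce to be tested, had 66 reads over the Cre negative and 0 over the libraries labelled Cre positive. It measured 0.168, 0 and 0.925 CPM in the Cre negative libraries, so the groups overlapped.

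Among core histone genes, the H2A gene Hist1h2ae had the highest mean of all members in the HSC sort, both in CPM and per kilobase of exon (98.5 CPM per kb). It measured 42.0, 66.8 and 33.0 against 63.1, 89.0 and 122 CPM. Only 1 Cre negative library exceeded a Cre positive one. Its log2 fold change was 0.95 (SE 0.38), with an adjusted p = 0.775 in edgeR's quasi-likelihood test. Without Hist1h2ae the log2 ratio of the H2A sums was 0.06 in place of 0.64, so this gene carried most of the H2A difference. Hist1h2ac, another H2A gene, differed the other way: 4.32, 12.1 and 13.8 CPM in Cre negative libraries against 2.04, 1.27 and 0.232 CPM, without overlap (log2 fold change -3.09, SE 1.48, adjusted p = 0.807). Hist1h2ag was also lower without overlap (3.35, 3.21 and 4.01 against 2.67, 0.0142 and 0.0545 CPM), but only 21.1% of its windows are its own. Hist1h2ab measured 6.08 ± 1.34 and 12.3 ± 6.56 CPM and Hist3h2a 7.67 ± 1.53 and 9.32 ± 2.38 CPM.

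The leading H2B gene of HSCs was Hist1h2bc, at 48.8, 49.9 and 37.9 against 27.6, 30.3 and 60.6 CPM. Hist2h2be, whose H2B variant is known from olfactory neurons, measured 4.26, 9.08 and 16.3 against 8.46, 0 and 0.245 CPM, and Hist3h2ba 1.99, 2.88 and 1.25 against 3.03, 6.09 and 12.6 CPM. Of these 3 genes, Hist3h2ba alone separated the groups. H3 was led by Hist1h3d at no more than 10.4 CPM in any library. Hist1h4d led H4, with 45.2, 45.0 and 36.1 against 36.9, 36.8 and 87.1 CPM, where 1 library labelled Cre positive stood above the other 5. Hist1h4i measured 6.19 ± 1.33 and 16.7 ± 12.2 CPM. The single gene of the fourth cluster, Hist4h4, was scarce and lower without overlap: 1.71, 0.848 and 0.357 against 0.0374, 0.0569 and 0.0136 CPM, or 180 reads against 7 (log2 fold change -4.69, SE 2.02, adjusted p = 0.781 in edgeR).

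**Figure D2:**
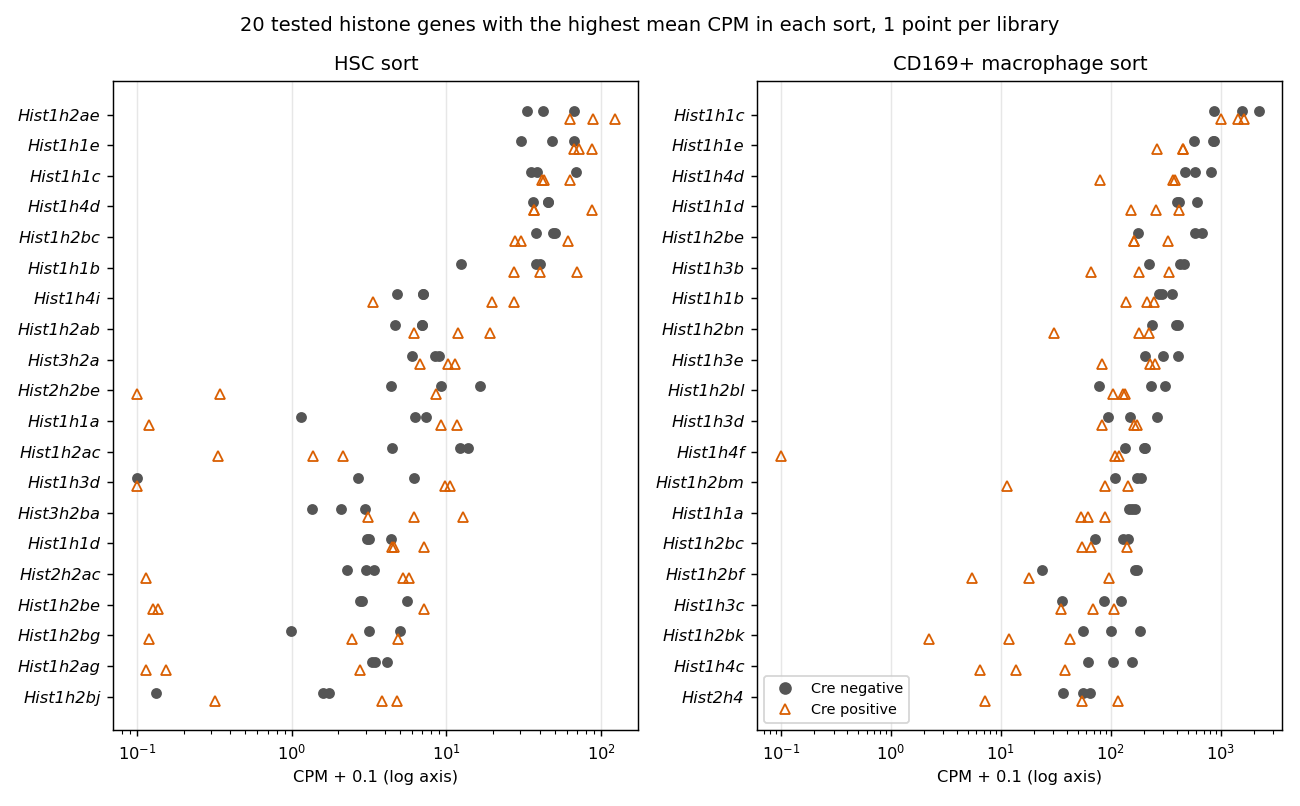
CPM plus 0.1, on a log axis, of the 20 tested histone genes with the highest mean in each sort, with 1 filled circle per Cre negative and 1 open triangle per Cre positive library. In HSCs (left) genes below the top 6 spread widely within a group; in macrophages (right) the lowest point of many genes is a Cre positive library, as for Hist1h4f, which is at 0 in 1 of them.

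Of the 67 members, 40 passed the filter on low counts in the HSC sort and 27 did not, of which 8 had 0 reads. Among the 40 tested, 0 passed an adjusted p of 0.05 in edgeR's quasi-likelihood test, as did 0 (0%) of all 13962 genes tested, where 892 stood at an unadjusted p under 0.05 and DESeq2 called 129. At an unadjusted p under 0.05 stood Hist1h2ae with the higher and Hist4h4 with the lower level, against 2.42% and 3.97% of all genes on these sides, and DESeq2 called 0 members. The log2 fold change was above 0 in 27 and below 0 in 13, with a median of 0.62 over the tested members, against -0.005 over all genes tested, of which 49.7% lay above 0. Without 1 library labelled Cre positive, replicate 3, the median over the same members was 0.21. By class the median was 0.98 for 12 H2A, 0.61 for 5 H1, 0.52 for 6 H4, 0.24 for 6 H3 and -0.03 for 11 H2B genes. Groups did not overlap in 3 members with the higher level in libraries labelled Cre positive (Hist1h1e, Hist1h1d and Hist3h2ba) and in 3 with the lower (Hist1h2ac, Hist1h2ag and Hist4h4). Over all genes tested, 6.37% did not overlap with the higher and 9.34% with the lower level, so these are shares near the background. Hist4h4 passed the filter through its Cre negative libraries, so only the lower side was open to it.

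Low members of the HSC sort were uneven between libraries of the same group. Of the 40 tested members, 20 (50%) had at most 3 reads in 1 library and at least 100 in another library of that group. The share was 25.6% over the 10006 genes tested whose mean CPM lay in the members' range, 0.200 to 69.3 CPM. Levels within that range were not matched, and such a split depends on level. The 2 shares thus do not show whether the members were more uneven than other genes of equal level. Hist1h2bh, an H2B gene, had 7.69 CPM in 1 library labelled Cre positive and 0 and 0.450 CPM in the other two. Hist2h2ac, an H2A gene, measured 5.14 and 5.67 CPM in 2 such libraries and 0.0142 CPM in the third. In macrophages the same pattern held for 11 of 49 tested members (22.4%), against 21.5% of genes in their range, again without matching of levels. Members with at least 1 read numbered 50, 48 and 38 against 37, 44 and 39, and with every library thinned to the depth of the shallowest, 49.8, 47.2 and 37.6 against 37.0, 42.6 and 38.3 were expected.

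In CD169+ macrophages the histone genes took 0.515%, 0.693% and 0.877% against 0.290%, 0.596% and 0.538% of reads. Their summed level was 5076, 7812 and 9775 CPM against 2683, 5682 and 4929 CPM. The means were 7554 ± 2360 and 4431 ± 1560 CPM (SD, n = 3 each), a ratio of 0.587, and the groups overlapped only through Cre negative replicate 1 and Cre positive replicate 2. Cre negative replicate 1 is the library with most hepatoblast reads, and Cre positive replicate 1, with the lowest total, is the shallowest; the part of either was not tested, and the log2 ratio of the sums was -0.51 to -0.99 when each library was left out in turn. H1 gave 41.8% to 63.6% of histone CPM, H2B 14.3% to 26.2%, H3 10.5% to 17%, H4 4.63% to 18.3% and H2A 1.46% to 3.98%. H2A thus had the smallest share in macrophages, where H3 had the smallest in HSCs. The tables were counted separately, and the counting of shared copies may differ between them.

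By class, H4 genes summed to 930, 1209 and 1490 against 124, 685 and 772 CPM, a ratio of 0.436 without overlap. H2B genes summed to 1778 ± 732 and 838 ± 389 CPM (ratio 0.471), H3 genes to 1193 ± 375 and 657 ± 348 CPM (0.550) and H1 genes to 3253 ± 980 and 2297 ± 515 CPM (0.706), each with overlap. H2A genes summed to 120 ± 22.6 and 112 ± 78.8 CPM, and the sign of that difference turned on library totals and with upper-quartile scaling (log2 ratios of 0.12 and 0.04 in place of -0.09). The other 4 classes had the lower sum in Cre positive libraries under each of the 3 scalings.

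Hist1h1c had the highest level of all members in macrophages, in CPM and per kilobase (932 CPM per kb). It measured 874, 1549 and 2214 against 1013, 1451 and 1624 CPM, and its log2 fold change of -0.18 (SE 0.32) turned positive on library totals (0.05) and in DESeq2 (0.03). Hist1h1e, in contrast, measured 571, 849 and 873 CPM against 266, 450 and 458 CPM. Every Cre positive library lay below every Cre negative one (log2 fold change -0.96, SE 0.32, adjusted p = 0.773 in edgeR). Hist1h1a was lower without overlap too, at 146, 157 and 166 against 61.8, 88.9 and 53.9 CPM, and so was Hist1h1b at 308 ± 45.3 and 199 ± 55.8 CPM. Hist1h1d measured 478 ± 118 and 275 ± 132 CPM, with overlap. Without Hist1h1c, the log2 ratio of the H1 sums was -0.87 in place of -0.50.

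**Figure D3:**
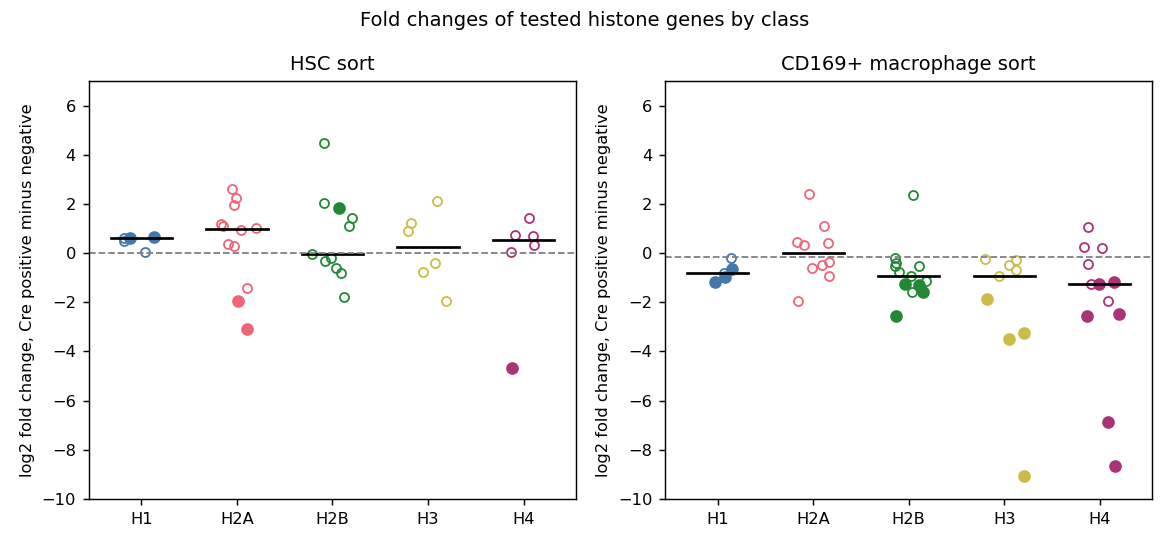
Log2 fold changes (Cre positive minus Cre negative) of tested histone genes by class in HSCs (left, 40 genes) and macrophages (right, 49 genes), with the class median as a black bar and the median of all genes tested as a dashed line. Filled points are genes whose groups do not overlap: 3 higher and 3 lower in HSCs, 0 higher and 17 lower in macrophages.

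Among H2B genes of macrophages, Hist1h2be measured 177, 582 and 681 against 164, 331 and 164 CPM, where Cre negative replicate 1 lay among the latter. Part of this gene overlaps Hist1h1e. Hist1h2bn, second among all members per kilobase, measured 239, 396 and 412 against 30.2, 223 and 181 CPM and did not overlap, while Hist1h2bl did (206 ± 118 and 122 ± 16.5 CPM). Hist1h2bn and Hist1h2bl have only 13.6% and 17.2% of their windows to themselves. Hist1h2bk measured 56.0, 100 and 183 against 2.13, 42.8 and 11.8 CPM (log2 fold change -2.57, SE 0.84, adjusted p = 0.773 in edgeR). Only 25.8% of its windows are its own. Hist1h2bb, at 84.2, 73.8 and 64.7 against 4.97, 47.0 and 21.5 CPM, was lower without overlap too. H2A was led by Hist2h2ac with 60.6 ± 10.9 and 47.2 ± 50.7 CPM, whose Cre positive libraries ranged from 5.68 to 104 CPM.

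H3 genes of macrophages were led by Hist1h3b, at 223, 428 and 464 against 65.7, 339 and 182 CPM, followed by Hist1h3e (304 ± 104 and 188 ± 91.3 CPM) and Hist1h3d (169 ± 86.0 and 139 ± 49.0 CPM). These 3 overlapped between the groups. Wider gaps appeared at lower levels: Hist1h3i measured 74.7, 72.1 and 86.7 against 11.4, 9.65 and 0 CPM (log2 fold change -3.49, SE 1.1, adjusted p = 0.773 in edgeR) and Hist1h3f 50.9, 63.0 and 132 against 0.355, 22.6 and 2.90 CPM (-3.23, SE 1.05, same adjusted p). Hist1h3h had 315 reads over the Cre negative and 0 over the Cre positive libraries. Against a floor of 3 counts per library this is at least 7.48-fold lower, which takes only counting error into account. Hist1h3h and Hist1h3i have only 6.08% and 12.4% of their windows to themselves. The Cre positive libraries are the shallow ones, and their floor of 0.512 to 1.07 CPM limits what could be seen.

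Among H4 genes, Hist1h4d measured 473, 579 and 820 against 79.2, 368 and 384 CPM. No Cre positive library reached a Cre negative one (log2 fold change -1.17, SE 0.47, adjusted p = 0.773 in edgeR). Hist1h4f was lower without overlap as well, at 134, 201 and 205 against 0, 118 and 109 CPM, and Hist1h4c at 61.8, 104 and 155 against 13.5, 38.2 and 6.32 CPM (log2 fold change -2.46, SE 0.70, adjusted p = 0.773 in edgeR). Hist2h4 did not share this pattern, at 36.4, 64.7 and 55.7 against 7.10, 55.2 and 116 CPM. Hist4h4 had the smallest p of all members: 57.4, 16.9 and 38.0 CPM, or 2214 reads, in Cre negative libraries against 0, 0 and 0.854 CPM, or 5 reads, in Cre positive ones (log2 fold change -6.85, SE 1.73, adjusted p = 0.773 in edgeR). In DESeq2 its adjusted p was 0.00187. Without Cre positive replicate 3 it was 0.00121 in edgeR's quasi-likelihood test. That fit leaves out the only Cre positive library with reads, so its smaller p follows from the library removed and adds no support.

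Of the 67 members, 49 passed the filter on low counts in macrophages and 18 did not, of which 7 had 0 reads. Of the 49 tested, 0 passed an adjusted p of 0.05 in edgeR's quasi-likelihood test, as did 0 (0%) of all 17806 genes tested, where 965 stood at an unadjusted p under 0.05 and DESeq2 called 54. DESeq2 called 1 member, Hist4h4. The log2 fold change was below 0 in 40 and above 0 in 9, where 43.9% of all genes tested lay above 0. The members' median was -0.79, against -0.16 over all genes. That all-gene median was 0.05 on library totals and -0.004 with upper-quartile scaling, where the members' median was -0.59 and -0.66. By class the median was -1.24 for 12 H4, -0.94 for 13 H2B, -0.92 for 9 H3, -0.79 for 5 H1 and -0.01 for 10 H2A genes. The groups did not overlap in 17 members, all with the lower level in Cre positive libraries (34.7% of those tested, against 11.9% of all genes), and in 0 with the higher level (2.27% of all genes). The 17 are 6 H4, 4 H3, 4 H2B and 3 H1 genes, and no H2A gene. Unadjusted p under 0.05 stood beside 15 members, all lower, against 4.91% of all genes on that side and 0.511% on the other. Hist1h3h (315 reads against 0), Hist1h4n (261 against 0) and Hist4h4 (2214 against 5) are in both counts. They passed the filter through their Cre negative libraries, so only the lower side was open to them. How many of all genes passed in this way was not counted. Without Cre negative replicate 1, 26 members were lower without overlap, and so were 20.5% of all genes tested. Without Cre positive replicate 1, 19 members were lower without overlap, against 19.5% of all genes, and 3 were higher, against 7.95%.

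Fewer members were detected in Cre positive macrophage libraries: 48, 58 and 54 had at least 1 read in Cre negative and 37, 46 and 43 in Cre positive libraries. Thinned to 2602934 reads, the depth of the shallowest, 46.7, 55.0 and 51.0 against 37.0, 44.7 and 42.0 were expected, still without overlap. Genes with reads over the whole table also numbered 20882 to 35022 in Cre negative and 14655 to 20523 in Cre positive libraries, as deposited. These numbers were not thinned, so whether members dropped out more than other genes at equal depth was not tested. Markers of stellate and mesenchymal cells moved with genotype in this sort as well, summing to 1641, 212 and 282 CPM against 109, 77.2 and 85.7 CPM over 10 genes, all below 0 (median log2 fold change -2.66) and 5 lower without overlap. Erythroid markers summed to 72.0, 369 and 373 against 45.4, 74.3 and 264 CPM, with 11 of 13 tested below 0 (median log2 fold change -2.41) and 3 lower without overlap. Of 11 hepatoblast markers 9 were below 0 (median -1.45), 2 of them lower without overlap. Over all 17806 genes tested in this sort, 11.9% were lower without overlap. Macrophage markers summed to 1942, 5919 and 5053 against 2172, 2334 and 3597 CPM over 14 genes. Of these, 12 were below 0 and 2 above (median -1.03), and 0 were lower without overlap. Endothelial markers, in contrast, had 9 of 12 above 0 and 3 below (median 0.24), with 1 lower without overlap. They summed to 14308, 7795 and 7717 against 11236, 14445 and 10580 CPM. The part of all these in the histone values was not tested.

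**Figure D4:**
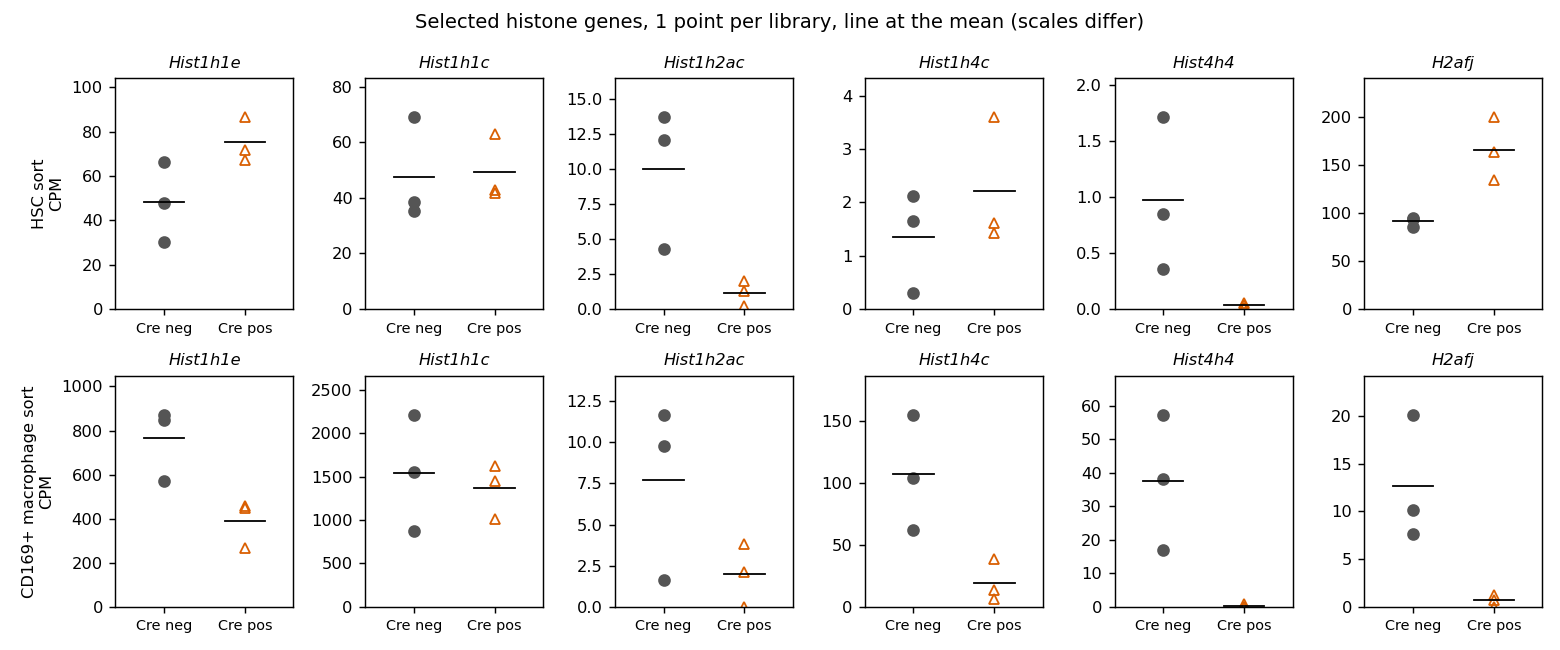
CPM in each library of 5 histone genes and of the neighbouring variant gene H2afj, in HSCs (top) and macrophages (bottom), with a line at each group mean and a scale of its own per panel. Hist1h1e lies higher in all 3 libraries labelled Cre positive in HSCs and lower in all 3 in macrophages, while Hist4h4 lies lower in both sorts.

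The HSC and macrophage comparisons use separate libraries, and 35 members were tested in both. Of these, 20 had a log2 fold change above 0 in HSCs and below 0 in macrophages, 10 lay below 0 in both, 4 above 0 in both and 1 below 0 in HSCs alone. Whether the genotype difference itself differed between the sorts was tested with an interaction term over all 12 libraries. None of the 54 members in that fit passed (0, against 14 of 20128 genes or 0.0696%), and their median difference, macrophages minus HSCs, was -1.41 against -0.21 over all genes. Without the HSC library Cre positive replicate 2, Hist1h2be passed (log2 difference 5.57, adjusted p = 0.000317 in edgeR). The smallest p belonged to Hist1h1e, with a difference of -1.61 (SE 0.46, adjusted p = 0.381 in edgeR), the gene whose groups separated in opposite directions. Next came Hist1h2bb and Hist1h3h (adjusted p = 0.476 and adjusted p = 0.495 in edgeR), both too scarce in HSCs to be tested there. Hist1h2bb had 133 reads over Cre negative HSC libraries (0.894, 1.09 and 0 CPM) and 0 over Cre positive ones. Hist1h3h had 0 and 18 reads, all 18 of them in Cre positive replicate 2. At an unadjusted p under 0.05 stood 1736 genes (8.62%) of all.

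Hist4h4 was the only member tested in both sorts whose groups separated in the same direction in each, and its neighbour was therefore read as well (chosen after its values were seen). It passed the filter in each sort through its Cre negative libraries (180 reads against 7 in HSCs, 2214 against 5 in macrophages), so only the lower side was open to it. Hist1h4m, not tested in either sort, was also lower without overlap in both (63 reads against 0 and 39 against 0). Hist4h4 lies at chr6:136801553-136804415 on the minus strand of GRCm38. H2afj, a replication-independent H2A variant gene, begins after a gap of 3828 bases on the plus strand. H2afj measured 85.7, 94.3 and 95.1 against 135, 164 and 200 CPM (log2 fold change 0.86, SE 0.23, adjusted p = 0.689 in edgeR). In macrophages it measured 20.1, 7.61 and 10.2 against 0.710, 1.27 and 0 CPM (-4.24, SE 2.31). The neighbours thus lay on opposite sides in HSCs and on the same side in macrophages.

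Annotated transcript ends were set beside the levels. The 17 members whose transcript runs at least 100 bases beyond the stem-loop (a limit chosen after the values were seen) held 61.3% to 70.3% of histone CPM in HSC libraries and 55.9% to 68.1% in macrophage libraries. They include 6 of the 12 highest members in each sort. Longer transcripts collect more reads, so levels were also compared per kilobase of exon. In HSCs the median was 2.26 CPM per kb in these 17 and 0.384 in the 18 members with a shorter tail. It was 1.33 in 19 with an annotated 3′ untranslated region but no motif and 0.623 in 13 with neither. In Hist1h2af and Hist1h2ah, counted among the 19, that region is only 1 and 2 bases long. In macrophages the 4 medians were 19.6, 11.7, 34.3 and 10.5 CPM per kb, so the order of these groups differed between the sorts. The groups also differ in the share of windows found at no other gene. It runs from 36.5% (Hist2h3c2) to 98.0% (Hist3h2a) in the 17 and from 0% (Hist2h2aa2) to 60.5% (Hist1h4f) in the 18. The part of shared reads in these levels was not tested. Cre positive sums were 1.39 times the Cre negative ones in HSCs for the 17 long members and 1.25 times for the other 50, and 0.633 and 0.523 times in macrophages, with overlap in all 4 cases.

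H2A and H2B genes often stand head to head and share the stretch between their starts. There are 12 such pairs with at most 305 bases between the annotated starts. The stretches of 4 pairs are printed because their 2 genes were read at very different levels, plus strand of GRCm38, from RefSeq promoter windows (GRCm38.p6). Capitals mark the octamer ATTTGCAT, known from H2B promoters, CCAAT boxes and TATAAA, each searched on both strands.
Hist1h2ae and Hist1h2bg, chr13:23571221-23571395: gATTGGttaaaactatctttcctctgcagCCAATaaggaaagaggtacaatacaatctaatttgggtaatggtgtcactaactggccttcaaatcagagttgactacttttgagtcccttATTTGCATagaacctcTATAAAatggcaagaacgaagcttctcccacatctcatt
Hist1h2ac and Hist1h2bc, chr13:23683949-23684198: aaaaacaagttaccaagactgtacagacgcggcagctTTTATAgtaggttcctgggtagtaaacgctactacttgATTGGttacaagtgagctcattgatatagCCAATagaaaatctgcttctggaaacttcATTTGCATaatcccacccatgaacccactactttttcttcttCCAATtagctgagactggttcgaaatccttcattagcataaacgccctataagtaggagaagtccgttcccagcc
Hist2h2ac and Hist2h2be, chr3:96220881-96221118: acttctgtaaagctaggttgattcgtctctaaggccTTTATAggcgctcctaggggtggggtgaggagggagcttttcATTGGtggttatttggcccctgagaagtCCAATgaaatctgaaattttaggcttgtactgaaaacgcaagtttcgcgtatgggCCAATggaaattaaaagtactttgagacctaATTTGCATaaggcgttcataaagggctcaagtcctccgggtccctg
Hist1h2ad and Hist1h2bf, chr13:23574197-23574380: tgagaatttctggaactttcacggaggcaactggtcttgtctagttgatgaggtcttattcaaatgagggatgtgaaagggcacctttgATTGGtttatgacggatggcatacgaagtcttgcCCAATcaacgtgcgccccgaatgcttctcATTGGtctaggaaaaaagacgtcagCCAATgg
The H2A gene is on the minus strand and the H2B gene on the plus strand in the first 3 and the other way round in the last. Each of the first 3 stretches holds 1 octamer on the plus strand and at least 2 CCAAT boxes, and the stretch of Hist1h2ad and Hist1h2bf holds 4 CCAAT boxes and no octamer.

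**Figure D5:**
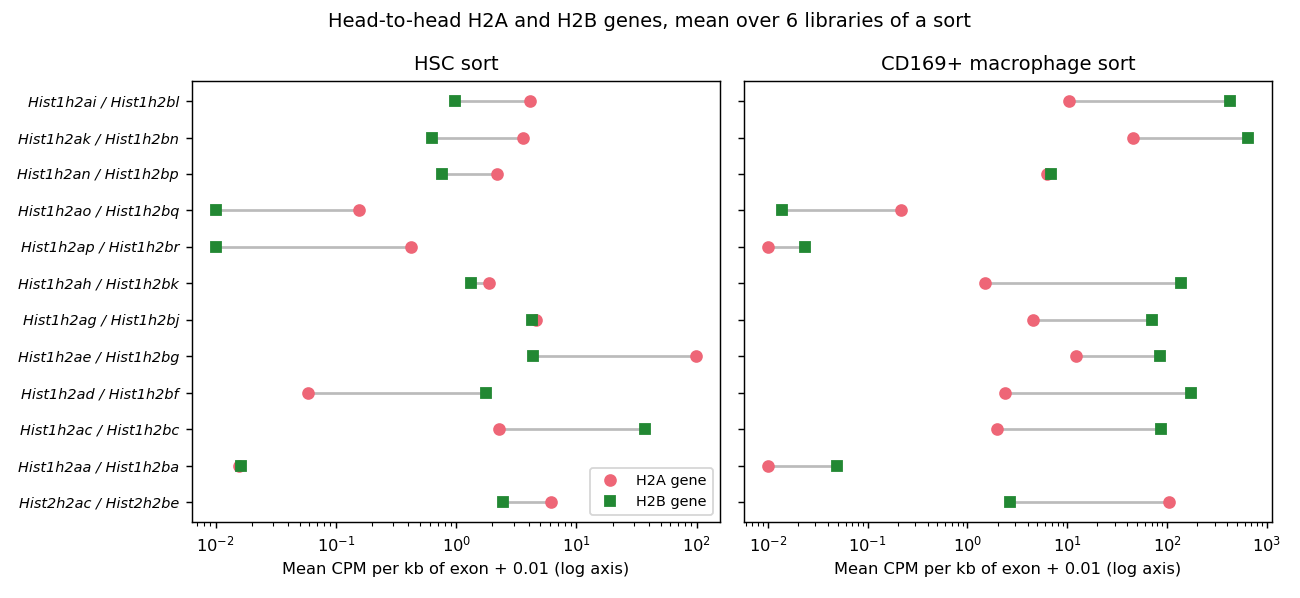
Mean CPM per kb of exon plus 0.01, on a log axis, of the H2A gene (circle) and the H2B gene (square) of 12 head-to-head pairs, over the 6 libraries of each sort. Leaving out the 3 pairs in which a gene has under 3 reads, 7 of 9 pairs have the higher mean at the H2A gene in HSCs and 8 of 9 at the H2B gene in macrophages.

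Levels per kilobase differed within pairs and between sorts. In 3 of the 12 pairs (those of Hist1h2aa, Hist1h2ao and Hist1h2ap) a gene had under 3 reads over the 6 libraries of each sort, and these were set aside after their values were seen. Of the other 9, the H2A gene had the higher mean in 7 in HSCs, and in all 6 libraries in 1 (Hist1h2ae), while the H2B gene was above in all 6 in 1 (Hist1h2bc). In macrophages the H2B gene had the higher mean in 8 of 9 and lay above its partner in all 6 libraries in 7. Hist1h2ae stood at 98.5 CPM per kb in HSCs against 4.30 for Hist1h2bg, and at 12.1 against 85.5 in macrophages, so this pair turned around. Its genes have similar shares of windows of their own (56.8% and 50.3%). Hist1h2bc was above Hist1h2ac in both sorts (36.8 against 2.26 and 87.6 against 1.95 CPM per kb). Hist2h2ac was the exception in macrophages, at 104 against 2.66 CPM per kb for Hist2h2be. Hist1h2bf stood at 1.74 CPM per kb in HSCs and 175 in macrophages, against 0.0491 and 2.39 for Hist1h2ad. In 8 of the 12 pairs the H2A gene has under 50% of windows to itself, and these pairs are uncertain.

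Promoter windows of 300 bases (250 before and 50 after the start) were found in RefSeq for 62 members. The octamer occurred in windows of 7 of 18 H2A and 7 of 16 H2B genes and in 0 of the H1, H3 and H4 windows. Over all 27025 genes with a window the share was 1.97%. A gene counted when any of its windows matched. Head-to-head partners can share a site, so these are not counts of separate sites. CCAAT occurred for 53 of 62 members, which are all H1, H2A, H2B and H3 genes with a window and 3 of 12 H4 genes, against 41.1% of all genes. TATAAA occurred in 35 of 62 against 15.7%, and AAACACA, known as the H1 box, in 5 of 6 H1 windows against 8.22%. Such matches describe letters in a window and not bound sites.

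Genes that make or use histone messages were read from lists. Of 19 genes of histone pre-mRNA processing tested in HSCs, 0 passed, 7 had a log2 fold change above 0 and 12 below, with a median of -0.12. Slbp, whose product binds the stem-loop, measured 425, 356 and 351 against 330, 268 and 256 CPM, without overlap (adjusted p = 0.806 in edgeR). Eri1, an exonuclease that trims the message end, measured 121 ± 17.2 and 41.4 ± 39.7 CPM and the cap-binding gene Ncbp1 97.6 ± 9.50 and 70.9 ± 4.83 CPM, both lower without overlap. In macrophages 13 of 19 had a log2 fold change above 0, with a median of 0.21, and Slbp measured 160, 158 and 167 against 142, 256 and 236 CPM. Npat overlapped between the groups in both sorts, at 40.0 ± 13.8 and 27.3 ± 19.7 CPM in HSCs and 24.4 ± 9.61 and 41.3 ± 24.7 CPM in macrophages. Casp8ap2, known to act with NPAT in histone gene expression, measured 77.8 ± 13.5 and 161 ± 65.4 CPM in macrophages and was higher without overlap, while the 3′ processing gene Cpsf1 was lower (54.8 ± 21 and 18.7 ± 4.30 CPM).

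DNA replication and G1/S genes, active in the same phase as the clustered histone genes, did not lie on the same side as the histone genes in HSCs. Of 40 tested, 27 were below and 13 above 0, with a median of -0.33, and their sum was 6606, 5881 and 6063 CPM in Cre negative against 5374, 5082 and 4690 CPM, without overlap. Mcm5, a helicase subunit, measured 337 ± 35.3 and 207 ± 19.5 CPM (log2 fold change -0.70, SE 0.19, adjusted p = 0.689). In macrophages 27 of 39 were below 0 (median -0.32), and the sum was 2976, 2968 and 3031 against 2231, 2707 and 2463 CPM. There the histone genes lay on the same side. The sliding clamp gene Pcna measured 82.9 ± 32.1 and 31.5 ± 26.0 CPM in macrophages. No gene of either list passed the adjusted threshold in either sort.

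Histone genes listed as replication-independent, whose messages are mostly but not all polyadenylated, gave 8 of 11 log2 fold changes above 0 in HSCs (median 0.25). In macrophages 2 of 11 lay above 0 (median -0.56). Their sum overlapped in HSCs (4145 to 4608 against 4218 to 4880 CPM) and was lower without overlap in macrophages (1406, 1720 and 1623 against 1135, 1254 and 1232 CPM). H2afz measured 833 ± 135 and 830 ± 170 CPM in HSCs and 501 ± 71.6 and 339 ± 42.7 CPM in macrophages, the latter without overlap. H3f3b, which encodes H3.3, measured 1161 ± 58.6 and 1078 ± 88.4 CPM in HSCs and 347 ± 131 and 278 ± 71.4 CPM in macrophages. H2afv, at 201 ± 4.0 and 276 ± 42.7 CPM, was higher without overlap in HSCs. In HSCs the 11 genes thus had a higher sum of CPM than the 67 clustered ones (4145 to 4880 against 281 to 582 CPM). In macrophages the clustered genes had the higher sum in all 6 libraries (2683 to 9775 against 1135 to 1720 CPM). These sums compare reads started at poly(A) tails and not amounts of message. Histone chaperones were split, with 10 of 23 above 0 in each sort and medians of -0.06 and -0.12.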

How the data were processed

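The authors deposited raw read counts per gene, 1 table per sort. The submitters' processing notes name STAR 2.7.6a, featureCounts and Subread 2.0.1 with GRCm38 and mm10 for HSC libraries and only mm10 for macrophages, whose aligner and counter, like the strand and multi-mapping settings of both sorts, were not stated in any source used here. Each table was analysed on its own with edgeR 4.0.16 (filterByExpr, TMM, robust glmQLFit and glmQLFTest) in R 4.3.3, with Benjamini-Hochberg adjustment over all genes tested and a threshold of 0.05; DESeq2 1.42.0 was an alternative. The interaction was fitted on the 32210 rows shared by both tables. CPM is counts over total reads times the TMM factor, and standard errors come from the log2 fold change and F. Members, lists and the naming rule were chosen with earlier results of these data known. The rule takes tested members past the threshold, the 12 highest, up to 5 per direction without overlap and with the smallest p, the highest of each class and cluster, and 3 in the interaction and per list. Other genes were named after their values were seen. Libraries of a group differed by more than sampling noise (chi-square per degree of freedom at least 51.2). The model was tested on simulated data. Columns left without a sample numbered 0. A count of 3 equals 0.0385 to 0.0560 CPM in HSC and 0.136 to 1.07 CPM in macrophage libraries; such floors cover counting error only, since amplified reads are not independent molecules.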

Additional observations from a re-analysis of the deposited data

How the results depend on the processing

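Over all genes, DESeq2 called 129 in HSCs and 54 in macrophages, where edgeR called 0; in macrophages 21 were called with no filter beyond 1 read, and 1 to 34 when each library was left out in turn. Of the members, DESeq2 called 1 in macrophages (Hist4h4), and leaving out libraries gave 0 to 1. The replicate numbers did not pair the libraries: deviations of same-numbered libraries correlated at -0.0005 to 0.0211 in HSCs and 0.0084 to 0.0366 in macrophages, and 2 of 6 HSC and 4 of 6 macrophage libraries correlated best with their own number. With the replicate block, 13 genes and 1 member (Hist1h2bk) were called in macrophages and 96 genes and 3 members (Hist1h2bn, Hist1h4f and Hist1h2be) in the interaction. The members' median with the block was 0.24 in HSCs, -1.42 in macrophages and -1.68 in the interaction. The interaction called 9 genes with upper-quartile scaling and 6 to 210, with 0 to 1 member (Hist1h2be), without single libraries. Without single libraries the median over the members tested with all libraries ranged from 0.21 to 0.83 in HSCs, from -1.45 to -0.70 in macrophages and from -1.68 to -1.06 in the interaction. Without its highest member the log2 ratio of H2A sums in HSCs was 0.058. Without Cre negative or Cre positive replicate 1 of macrophages (added after seeing the data), members without overlap numbered 26 and 19 lower (20.5% and 19.5% of all genes) and 0 and 3 higher (4.75% and 7.95%). The cause of these shifts was not tested.

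Among single genes the sign of the log2 fold change turned in HSCs for Hist1h1c (-0.17 to 0.41 without single libraries), Hist1h4d (-0.19 to 0.55) and Hist1h1a (-0.088 to 1.09, and -0.80 with the replicate block). In macrophages it turned for Hist1h1c (0.048 on library totals, 0.027 in DESeq2, -0.47 to 0.16 without single libraries), Hist1h3d (-0.57 to 0.18), Hist2h2ac (-1.74 to 0.11), Hist2h4 (-0.45 with the replicate block, -0.81 to 0.65) and Hist3h2a (-2.86 with the block, -3.88 to 1.68).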

Other observations

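Among the pseudogenes left out of the members, Hist3h2bb-ps had 176, 100 and 114 reads in Cre negative macrophage libraries and 0 in each Cre positive one. The testis genes Hist1h2aa and Hist1h2ba had at most 2 reads over the Cre negative and at most 1 over the Cre positive libraries of a sort.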
